A study of Mus musculus with 32 samples.

Results

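The FoxO factors and the insulin-Akt-mTOR signalling genes described here were 10 named genes of the 33397 in the deposited table: the transcription factors Foxo1, Foxo3 and Foxo4, the receptor adaptors Irs1 and Irs2, the kinases Akt1 and Akt2, and the mTOR inhibitors Ddit4, Sesn1 and Deptor. They were chosen by name for their place in the pathway, with earlier results of these data known, and all 10 passed the filter on low values. RNA was sequenced from gastrocnemius (GAS) muscles of C57BL/6 mice at 8 time points post denervation, which were 0, 1, 3, 5, 7, 14, 21 and 28 d, with 4 samples at each and 32 in all. By the methods text the mice were young males of the C57BL/6J substrain, the sciatic nerve was cut, and control mice had sham surgery that left the nerve whole. The sample labels give sciatic nerve transection as the treatment of every group, 0 d included, so the 0 d samples were taken as the control only through their label of Day0 and the control names of their columns. The labels name no genetic change in any sample, and whole muscle was read, so the values average over fibres and all other cells in it. The study's text calls its samples biologically independent, but nothing in the labels ties a sample to 1 animal or says whether tissue was pooled, and p-values measure the spread between these samples only.

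In muscle, insulin and IGF1 receptors recruit the IRS adaptors, which bring PI3-kinase to the membrane and so switch on Akt. Akt phosphorylates the FoxO factors and keeps them out of the nucleus, and it releases mTORC1, the kinase complex that drives protein synthesis, from its inhibitor TSC. When Akt activity falls, nuclear FoxO factors turn on ubiquitin ligases and autophagy genes, and stress proteins such as REDD1, encoded by Ddit4, hold mTORC1 down. Much of this regulation acts on phosphorylation and location of the proteins, which RNA levels do not measure.

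The genes lie on 8 chromosomes of the GRCm38 build by GENCODE annotation. Foxo1 (ENSMUSG00000044167) is at chr3:52268336-52353221 on the plus strand, Foxo3 (ENSMUSG00000048756) at chr10:42181841-42276755 on the minus strand and Foxo4 (ENSMUSG00000042903) at chrX:101254528-101260873 on the plus strand. Irs1 (ENSMUSG00000055980) is at chr1:82233101-82291416 and Irs2 (ENSMUSG00000038894) at chr8:10984681-11008458, both on the minus strand. Akt1 (ENSMUSG00000001729) is at chr12:112653821-112674884 on the minus strand and Akt2 (ENSMUSG00000004056) at chr7:27591552-27640826 on the plus strand. Ddit4 (ENSMUSG00000020108) is at chr10:59949669-59951834 on the minus strand, Sesn1 (ENSMUSG00000038332) at chr10:41809935-41908424 and Deptor (ENSMUSG00000022419) at chr15:55112317-55259271, both on the plus strand. Antisense genes share exonic bases with 4 of them, namely 674 bases of Foxo1 with Gm20402, 2822 bases of Irs1 with Gm9747, 162 bases of Irs2 with 9530052E02Rik and 303 bases of Deptor with Gm9920. The sources used here do not say whether counting used strand, so reads from these shared bases cannot be assigned to 1 gene.

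Promoter windows from RefSeq on GRCm38.p6 were at hand for 8 of the 10 genes, in 13 windows of 250 bases before and 50 bases after a start. They were searched on both strands for the FoxO motif GTAAACA and for the E-box CACGTG, which do not overlap in sequence. The FoxO motif was in 3.65% and the E-box in 7.15% of all 32851 such windows. Both adaptor genes held an E-box, which began 115 bases before the start in Irs1 and 44 bases before it in Irs2. The FoxO motif was present in 1 window of Akt1, 161 bases before the start, and in 1 window of Sesn1, where it began at base 23 of the transcript. The stretches with these matches are shown, 5′ to 3′ on the strand of the gene, because they hold all 4 matches found in the 13 windows. Capitals mark the match, which in Akt1 and Sesn1 is the reverse complement of the letters searched, and a match is a description of the letters and not a bound site. The stretches are chr1:82291440-82291689 (minus strand) for Irs1, chr8:11008930-11009179 (minus) for Irs2, chr12:112674885-112675134 (minus) for Akt1 and chr10:41810585-41810614 (plus) for Sesn1.
Irs1: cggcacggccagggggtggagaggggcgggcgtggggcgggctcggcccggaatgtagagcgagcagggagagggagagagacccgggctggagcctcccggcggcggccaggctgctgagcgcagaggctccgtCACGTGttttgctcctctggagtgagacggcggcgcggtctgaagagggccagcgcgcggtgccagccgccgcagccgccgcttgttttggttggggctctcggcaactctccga
Irs2: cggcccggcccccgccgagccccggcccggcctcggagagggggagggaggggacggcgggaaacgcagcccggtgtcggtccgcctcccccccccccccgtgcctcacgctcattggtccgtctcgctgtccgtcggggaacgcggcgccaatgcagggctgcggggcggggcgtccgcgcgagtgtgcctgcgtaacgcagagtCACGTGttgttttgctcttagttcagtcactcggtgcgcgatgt
Akt1: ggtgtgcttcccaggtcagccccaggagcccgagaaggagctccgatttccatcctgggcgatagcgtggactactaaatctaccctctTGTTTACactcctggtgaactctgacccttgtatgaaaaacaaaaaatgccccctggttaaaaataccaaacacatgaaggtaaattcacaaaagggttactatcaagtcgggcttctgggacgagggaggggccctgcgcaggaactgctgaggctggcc
Sesn1: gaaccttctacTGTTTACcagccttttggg

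Sequencing depth was close to even, with 14199920 to 17561609 fragments recovered per sample (median 16663179). The 8 muscle fibre markers were present in every sample. The extraction text in the labels speaks of retinas, but of 7 retina markers 6 were in the table, none reached a mean of 1 FPKM at any time, and their summed level was at most 0.528 FPKM. Mitochondrial genome transcripts took 14.5 to 18.2% of fragments at 0 d and 6.70 to 17.1% at the other times. The median gene of the 11943 with a mean FPKM of at least 1 lay above its 0 d level by 0.12 (log2) at 1 d and 0.20 at 3 d, and by 0.31, 0.32, 0.32, 0.24 and 0.30 at 5, 7, 14, 21 and 28 d in that order, so median-ratio scaling, which brings these medians to between -0.02 and 0.03, is given beside the FPKM as deposited where it changes a call. Of all genes called against 0 d, 68.7 to 79.5% were higher as deposited and 44.8 to 49.6% after median-ratio scaling. One 3 d sample, the first in the table, stood apart with a score of -18.5 on the first principal component (47.3% of the variance), against 1.15 to 6.40 for the other 3 d samples and -49.4 to -37.7 for the 1 d samples, and results that rest on it are given without it too.

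All 10 genes varied over the course (limma moderated F over log2(FPKM + 1), adjusted p from 1.42e-15 for Akt2 to 1.54e-07 for Foxo4), as did 63.2% of the 22071 genes tested. FPKM scales fragments to exon length and library total, so levels of different genes can be set side by side. A gene was called when its adjusted p was under 0.05 and its change, on the log2(FPKM + 1) scale, was at least 1.5-fold. The genes fell into 3 courses, an early surge (Ddit4, Sesn1, Irs1, Irs2, Foxo3), a later or longer gain (Akt1, Akt2, Deptor, Foxo1) and a level that stayed below the fold threshold as deposited (Foxo4), which the plot of FPKM by sample shows.

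**Figure D1:**
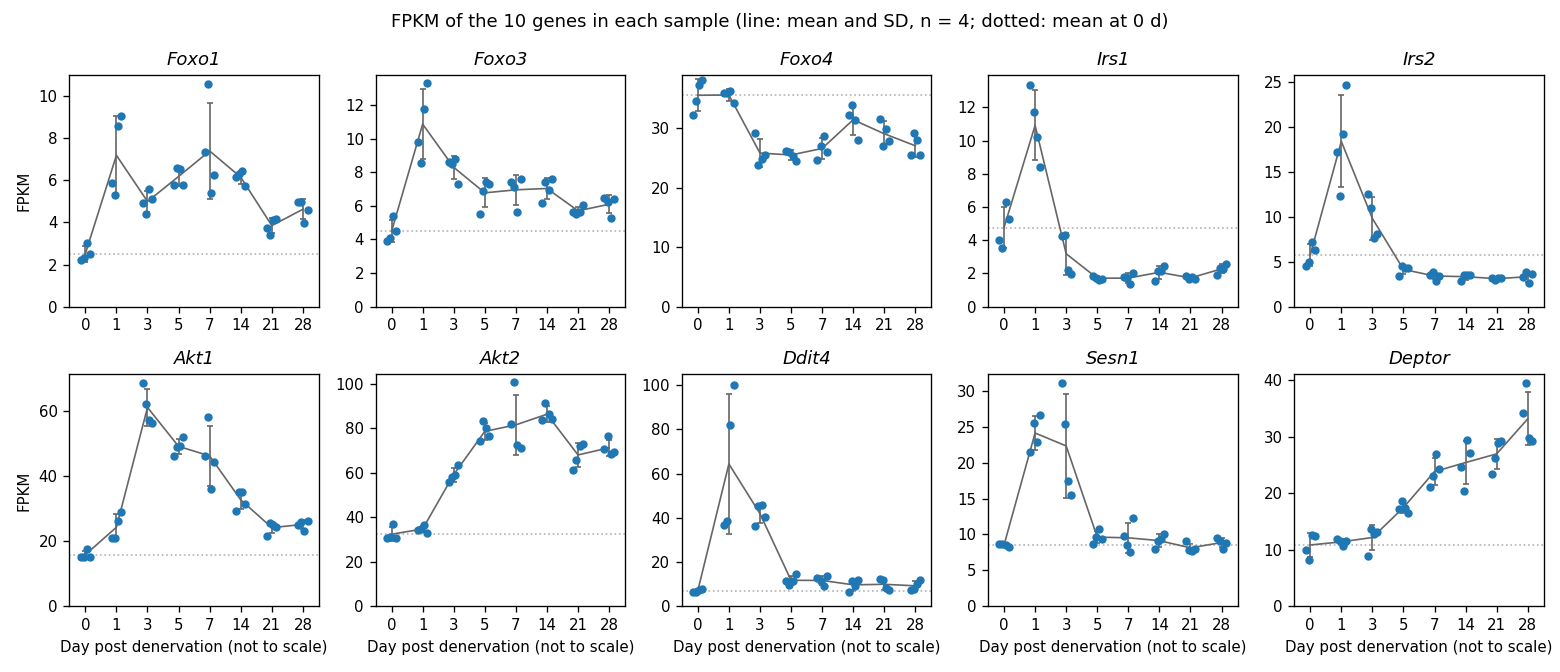
FPKM of the 10 genes (vertical axes, linear from 0) in each of 4 samples at 0 to 28 d post denervation (horizontal axes, time points evenly spaced); points are samples, lines and bars are means and SDs, dotted lines the 0 d mean. Ddit4, Sesn1, Irs1, Irs2 and Foxo3 have their highest mean at 1 d, Akt1 at 3 d, Akt2 at 14 d and Deptor at 28 d.

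At 1 d, 6 of the 10 genes were called higher (Foxo1, Foxo3, Irs1, Irs2, Ddit4 and Sesn1) against 6.34% of all genes tested. Against 2.49% of all genes, 0 were called lower. Median-ratio scaling left these counts as they were, against 4.14% and 4.69% of the 22047 genes tested under it. Limma gave 7 higher and 0 lower at 1 d at an unadjusted p under 0.05, a cut for which no share of all genes is given here. At 3 d, 7 were called higher against 13.2% and 0 lower against 6.03%. Limma gave 7 higher and 2 lower at an unadjusted p under 0.05, again with no share of all genes at that cut. After median-ratio scaling the 3 d counts were 5 higher and 2 lower (Foxo4 and Irs1), against 9.02% and 9.17% of all genes, and without the 3 d sample that stood apart they were 6 higher and 1 lower (Irs1). At 5 d, 5 were higher against 14.9% and 1 lower against 3.86%, or 3 and 3 after median-ratio scaling, against 6.71% and 7.7%. At 7 d, 5 were higher against 15.4% and 2 lower against 4.1%, or 4 and 3 after median-ratio scaling (Ddit4 lost, Foxo4 gained), against 7.16% and 7.92%. At 14 d the counts were 4 higher and 2 lower under both scalings, against 14.6% and 3.83% of all genes as deposited; the shares were 6.59% and 7.55% on the median-ratio scale. At 21 d they were 2 and 2 under both, against 11.8% and 3.93% as deposited or 6.45% and 7.17% after scaling. At 28 d they were 4 and 2 as deposited, against 14.2% and 4.1%, and 2 and 3 after scaling, against 6.59% and 8.11%.

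**Figure D2:**
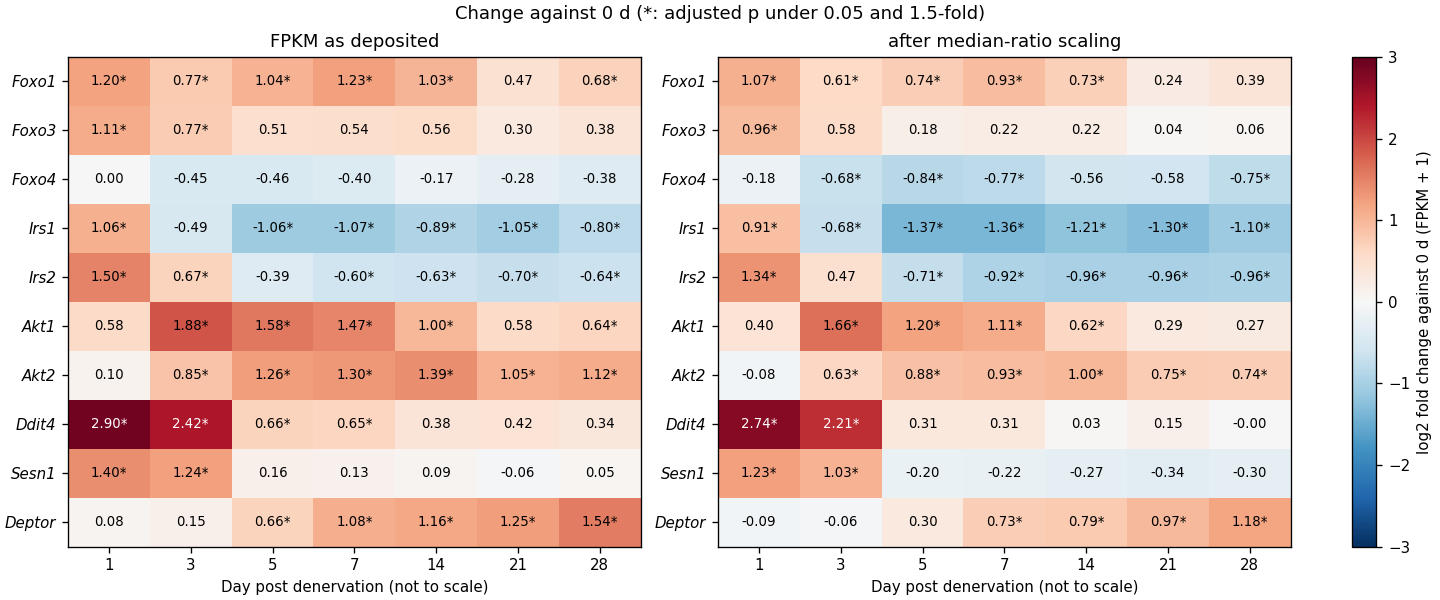
Log2 fold change of FPKM + 1 against 0 d for each gene (rows) at 1 to 28 d (columns), as deposited on the left and after median-ratio scaling on the right; colour runs from -3 (blue) to 3 (red), and an asterisk marks a called change. Irs1 and Irs2 turn from red at 1 d to blue from 5 d on, while Akt2 stays called higher from 3 d to 28 d in both panels.

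Foxo4 was by far the most abundant of the 3 FoxO transcripts and overlapped its controls at 1 d, when Foxo1 and Foxo3 rose. Foxo1, a FoxO factor that drives atrophy genes in muscle, was at 2.22, 2.29, 3.04 and 2.49 FPKM in the 0 d samples and at 5.88, 5.28, 8.57 and 9.04 at 1 d. No 1 d sample overlapped the controls, and the log2 fold change was 1.20 (SE 0.14, limma adjusted p = 7.02e-08). Foxo1 dipped to a mean of 5.00 ± 0.49 FPKM at 3 d (SD, n = 4), which was still higher than at 0 d (log2 0.77, limma adjusted p = 3.09e-05).

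At 7 d the Foxo1 mean was 7.40 ± 2.28 FPKM, from samples at 7.36, 10.6, 5.38 and 6.25. As deposited the 7 d change was about as large as that at 1 d, but it was smaller after median-ratio scaling (0.93 against 1.07) and without the second 7 d sample (1.06 against 1.20). It was called at 5, 7 and 14 d with log2 fold changes of 1.04, 1.23 and 1.03. At 21 d its samples, from 3.38 to 4.14 FPKM, still lay above every control sample, but the change of 0.47 was below the fold threshold (limma adjusted p = 0.00698). At 28 d it was called again at 0.68 (limma adjusted p = 0.000154), a call lost after median-ratio scaling (0.39, adjusted p = 0.0135).

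Foxo3, the paralogue best known for turning on both ubiquitin ligase and autophagy genes in wasting muscle, was highest at 1 d. Its control samples held 3.93, 4.06, 5.39 and 4.52 FPKM and its 1 d samples 9.80, 8.57, 11.8 and 13.3. The groups did not overlap, and the log2 fold change was 1.11 (SE 0.11, limma adjusted p = 3.08e-09). At 3 d the samples held 8.60, 8.50, 8.79 and 7.29 FPKM (log2 0.77, limma adjusted p = 7.61e-07; 0.58 and just under the fold threshold after median-ratio scaling). From 5 d on its mean lay between 5.70 and 7.03 FPKM, and no change against 0 d was called (log2 0.30 to 0.56). The changes at 5, 7 and 14 d were called when single samples were left out (0.59 to 0.63). They were also called with TPM (0.74, 0.78 and 0.81) and with a pseudocount of 0.1 (0.59, 0.63 and 0.65), but not after median-ratio scaling.

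Foxo4, a FoxO factor that is X-linked in mice, was at 32.2, 34.6, 37.2 and 38.2 FPKM at 0 d and at 35.9, 35.9, 36.3 and 34.2 at 1 d, so these groups overlapped. At 3 d it stood at 29.1, 23.8, 24.8 and 25.6 FPKM, below every control sample. The change of -0.45 at 3 d (limma adjusted p = 2.36e-06) and those of -0.46 at 5 d, -0.40 at 7 d and -0.38 at 28 d did not reach 1.5-fold as deposited. After median-ratio scaling all 4 did, at -0.68, -0.84, -0.77 and -0.75, while 14 d (-0.56) and 21 d (-0.58) stayed just short of the threshold.

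The shares of these 3 FoxO genes in a sample do not depend on scaling between samples. Foxo6, the other FoxO gene, is not part of the shares. Its mean was 2.71 FPKM at 0 d and 0.448 at 3 d, beside 2.51 and 5.00 for Foxo1. Foxo4 made up 83.6 ± 1.41% of the summed FPKM of the 3 genes at 0 d (SD, n = 4), 66.6 ± 5.29% at 1 d, 66.0 ± 2.27% at 3 d and 71.6 ± 2.78% at 28 d. The ratio of Foxo4 to Foxo3 was 7.98 at 0 d and fell to 3.32 at 1 d and 3.11 at 3 d, then stood at 5.09 at 21 d and 4.44 at 28 d. It was below the 0 d samples without overlap at all 7 times (exact two-sided permutation p = 0.0286 each, adjusted p = 0.0348, the smallest that 4 against 4 samples and 28 tests gave here). The ratio of Foxo1 to Foxo3 rose from 0.561 at 0 d to 0.917 at 5 d, 1.04 at 7 d and 0.876 at 14 d (exact adjusted p = 0.0348 at each), so the paralogues stood near equal levels at 7 d. At 3 d it was 0.602 and the groups overlapped (exact adjusted p = 0.314).

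**Figure D3:**
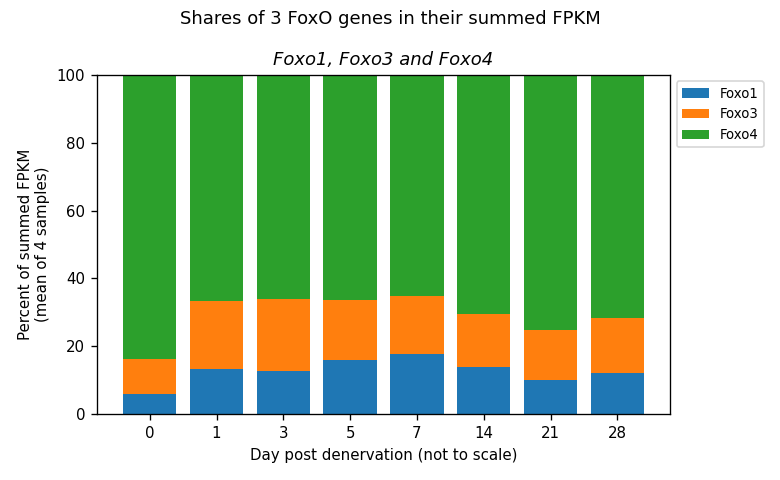
Share of each gene (percent, stacked bars, mean of 4 samples) in the summed FPKM of Foxo1, Foxo3 and Foxo4 at 0 to 28 d post denervation. The Foxo4 share goes from 83.6% at 0 d to 66.0% at 3 d and stands at 71.6% at 28 d.

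Both IRS adaptors rose at 1 d and were called lower than the controls later, Irs1 from 5 d and Irs2 from 7 d to 28 d, while Irs2 was still called higher at 3 d. Irs1, the main insulin receptor substrate of muscle, was at 3.99, 3.51, 6.28 and 5.28 FPKM at 0 d and at 13.4, 11.7, 10.2 and 8.42 at 1 d (log2 1.06, SE 0.16, limma adjusted p = 7.04e-06). Every 1 d sample was above every control. By 3 d the samples were split, at 4.27, 4.29, 2.22 and 1.96 FPKM, a drop from 1 d of -1.54 (limma adjusted p = 9.82e-09).

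At 5 d Irs1 held 1.87, 1.71, 1.59 and 1.66 FPKM, 0.359 times the control mean. It was called lower at 5, 7, 14, 21 and 28 d, with log2 fold changes of -1.06, -1.07, -0.89, -1.05 and -0.80, and no sample of these times reached the lowest control. At 3 d the change against 0 d was -0.49 and not called (limma adjusted p = 0.0149); it was called after median-ratio scaling (-0.68) without the 3 d sample that stood apart (-0.62), and without the second 3 d (-0.62) or second control sample (-0.60).

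Irs2, the adaptor with a leading part in liver and beta cells, was at 4.52, 5.01, 7.17 and 6.34 FPKM at 0 d and at 17.2, 12.3, 19.2 and 24.7 at 1 d (log2 1.497, SE 0.15, limma adjusted p = 8.95e-09). All 1 d samples were above the controls. At 3 d it held 12.5, 10.99, 7.61 and 8.07 FPKM, still above the controls (log2 0.67, limma adjusted p = 0.000674), but the call was lost without the 3 d sample that stood apart (0.55), without the first control sample (0.58) and after median-ratio scaling (0.47).

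It then fell from 3 d to 5 d by 1.05 on the log2 scale (limma adjusted p = 6.87e-06), and at 5 d it was called lower than at 0 d only after median-ratio (-0.71) or quantile scaling (-0.70) or with no fold threshold (-0.39 as deposited). Its samples from 7 d to 28 d lay between 2.57 and 3.82 FPKM, below every control. The calls at 7, 14, 21 and 28 d, at -0.60, -0.63, -0.70 and -0.64, were close to the fold threshold. Leaving out a single sample took the call away at 7, 14 and 28 d but not at 21 d, and after median-ratio scaling the changes were -0.92 at 7 d and -0.96 at the others.

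The adaptors did not keep to 1 ratio. The ratio of Irs2 to Irs1 in a sample was 1.22 at 0 d, and 3.21, 2.41, 1.99 and 1.80 at 3, 5, 7 and 21 d, each above the controls without overlap (exact two-sided permutation adjusted p = 0.0348). It was 1.66 at 1 d (exact adjusted p = 0.296), 1.63 at 14 d (0.0667) and 1.46 at 28 d (0.215), where the groups overlapped. At 1 d the samples differed widely in this ratio, with an SD of 0.65 on the log2 scale against 0.16 at 0 d.

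**Figure D4:**
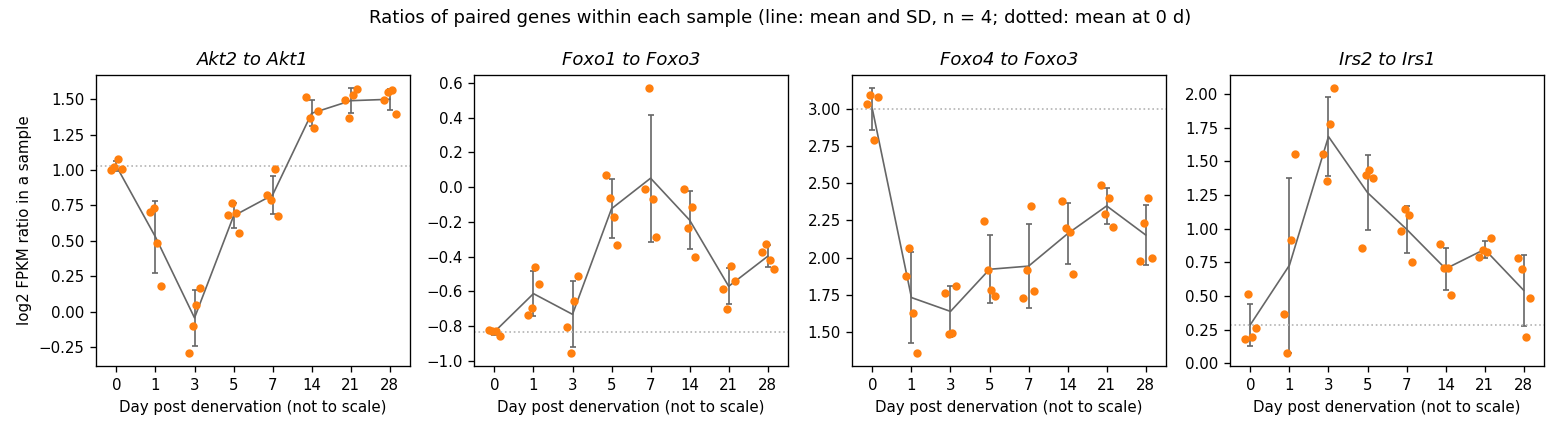
Log2 ratio of the FPKM of 2 genes within a sample (vertical axes) at 0 to 28 d post denervation (horizontal axes, evenly spaced) for Akt2 to Akt1, Foxo1 to Foxo3, Foxo4 to Foxo3 and Irs2 to Irs1; points are samples, lines and bars means and SDs, dotted lines the 0 d mean. Akt2 to Akt1 falls from a linear ratio of 2.04 at 0 d to 0.969 at 3 d and stands at 2.83 at 28 d.

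Both Akt kinases gained transcript, both first called at 3 d, with the highest Akt1 mean at 3 d and the highest Akt2 mean at 14 d. Akt1, the broadly expressed Akt linked to growth, was at 15.3, 15.3, 17.6 and 15.3 FPKM at 0 d and at 68.7, 62.4, 57.2 and 56.6 at 3 d, 3.86 times as high (log2 1.88, SE 0.11, limma adjusted p = 1.02e-14). At 1 d its samples, at 21.1, 20.9, 26.3 and 29.1 FPKM, were all above the controls, but the change of 0.58 was just under the fold threshold (limma adjusted p = 8.33e-05) and passed it without the third control or either of the first 2 samples of 1 d (0.62 to 0.64). It rose from 1 d to 3 d by 1.31 (limma adjusted p = 6.98e-11).

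After 3 d Akt1 came down, with means of 49.2 ± 2.42 FPKM at 5 d and 46.3 ± 9.17 at 7 d (SD, n = 4), and of 32.8 ± 2.94, 24.2 ± 1.68 and 25.2 ± 1.41 at 14, 21 and 28 d. Every sample after 0 d was above the highest control. It was called higher from 5 to 14 d (log2 1.58, 1.47 and 1.00) and at 28 d (0.64), not at 21 d (0.58), and the 28 d call was lost after median-ratio scaling (0.27). From 3 d to 28 d it fell by 1.24 (limma adjusted p = 1.83e-10).

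Akt2, the isoform tied to insulin-stimulated glucose uptake, was at 30.7, 31.0, 37.1 and 30.7 FPKM at 0 d and at 34.3, 34.8, 36.8 and 33.0 at 1 d, so the groups overlapped and no change was called (log2 0.10, limma adjusted p = 0.401). At 3 d it held 56.0, 58.1, 59.2 and 63.5 FPKM (log2 0.85, limma adjusted p = 4.58e-10). The highest mean, at 14 d, came from samples of 83.6, 91.4, 86.2 and 84.2 FPKM (log2 1.39, SE 0.08, limma adjusted p = 2.28e-14). At 28 d it was still at 70.8, 76.4, 68.6 and 69.3 FPKM, 2.20 times the control mean (log2 1.12, limma adjusted p = 2.38e-12), and it was called at all 6 times from 3 d on under both scalings.

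The balance between the kinases shifted to and fro. The ratio of Akt2 to Akt1 was 2.04 at 0 d, 1.44 at 1 d and 0.969 at 3 d, where the transcripts stood level, and 1.60 at 5 d, each below the controls without overlap (exact two-sided permutation adjusted p = 0.0348). At 7 d it was 1.77 and the groups overlapped (exact adjusted p = 0.096). At 14, 21 and 28 d it was 2.64, 2.81 and 2.83, above every control (exact adjusted p = 0.0348 at each).

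Cell type markers also changed over the course. The summed level of the 8 muscle fibre markers was 45969 to 48926 FPKM at 0 d, 37135 to 42316 at 1 d, 23841 to 28321 at 3 d and 25562 to 29800 at 28 d. That of 6 macrophage markers was 111 to 161 FPKM at 0 d, 247 to 817 at 3 d, 301 to 988 at 7 d and 360 to 436 at 28 d. That of 5 Schwann cell markers was 126 to 268 at 0 d and 20.1 to 52.8 at 3 d. That of 3 satellite cell markers was 6.71 to 7.49 at 0 d, 10.8 to 14.1 at 3 d and 10.3 to 18.0 at 7 d. Without the 3 d sample that stood apart, the 3 d ranges were 400 to 817 FPKM for macrophage and 29.8 to 52.8 for Schwann cell markers. No marker of these 4 lists was at 0 in all samples of a time point, and the part of these cells in the Akt values was not tested. In bulk samples like these, fewer cells of a type and less RNA per cell cannot be told apart.

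The mTOR inhibitors split by time, with Ddit4 and Sesn1 highest at 1 and 3 d and Deptor called higher from 5 d to the end. Ddit4, which encodes REDD1, a stress protein that lowers mTORC1 activity through TSC, had the largest change of the 10 genes. It was at 6.47, 6.49, 7.50 and 7.61 FPKM at 0 d and at 36.9, 38.5, 81.9 and 100.1 at 1 d, 9.17 times the control mean (log2 2.90, SE 0.24, limma adjusted p = 1.33e-10). The 1 d samples fell into a lower and a higher pair, all above the controls, and in Foxo1, Foxo3, Irs2 and Akt1 too the last 2 samples of 1 d lay above the first 2, while in Irs1 they lay below. The higher pair had mitochondrial shares of 12.9 and 12.2%, the lower pair 15.0 and 17.1%, and the part of that difference was not tested.

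At 3 d Ddit4 was at 36.4, 45.2, 45.7 and 40.3 FPKM (log2 2.42, limma adjusted p = 1.38e-09), and by 5 d it had fallen by 1.76 to 11.6, 9.49, 11.5 and 14.4 FPKM (limma adjusted p = 2.31e-06). It was called higher at 5 d (0.66, limma adjusted p = 0.0253) and 7 d (0.65, limma adjusted p = 0.0265), but neither call held after median-ratio scaling (0.31 at both) or without the first or the second control sample (0.62 to 0.63). From 14 d on its samples, 6.29 to 12.1 FPKM, overlapped the controls.

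Sesn1, a sestrin that restrains mTORC1 when amino acids are short, was at 8.70, 8.63, 8.51 and 8.23 FPKM at 0 d and at 21.5, 25.4, 22.9 and 26.6 at 1 d (log2 1.40, SE 0.14, limma adjusted p = 6.31e-09). At 3 d the samples spread from 31.1 and 25.4 down to 17.4 and 15.4 FPKM, all above the controls (log2 1.24, limma adjusted p = 1.90e-08). It fell by 1.08 between 3 d and 5 d (limma adjusted p = 1.14e-06), and from 5 d to 28 d its means were 8.13 to 9.63 FPKM, with no called change and overlapping samples.

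Deptor, a protein that binds mTOR and inhibits both of its complexes, was at 10.005, 8.24, 12.7 and 12.5 FPKM at 0 d and at 11.9, 11.5, 10.7 and 11.5 at 1 d, where the groups overlapped (log2 0.08, limma adjusted p = 0.712). At 5 d it held 17.2, 18.7, 17.4 and 16.5 FPKM, all above the controls (log2 0.66, limma adjusted p = 7.78e-05; not called after median-ratio scaling, at 0.30, or without the second control sample, at 0.54). It stood at 21.1, 23.1, 27.0 and 24.2 FPKM at 7 d and at 34.2, 39.5, 29.8 and 29.3 at 28 d, 3.06 times the control mean (log2 1.54, SE 0.13, limma adjusted p = 4.04e-11). The changes at 7, 14, 21 and 28 d were called under both scalings, and 28 d exceeded 3 d by 1.38 (limma adjusted p = 6.99e-10).

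All called steps between neighbouring times lay between 1 d and 5 d. Later movement was spread over steps that were not called singly. Against 0 d, Deptor went from 0.66 at 5 d to 1.54 at 28 d, and Akt1 from 1.58 to 0.64. From 1 d to 3 d, 2 genes rose (Akt1 and Akt2, the latter by 0.75) and 2 fell (Irs1 and Irs2, the latter by 0.83), against 10.6% of all genes called in either direction. From 3 d to 5 d, 3 fell (Irs2, Ddit4 and Sesn1), against 5.76%. Irs1 changed by -0.58 in that step, just under the fold threshold, and was called after median-ratio scaling (-0.68), under 5 other settings and when either of the last 2 samples of 3 d or the first of 5 d was left out (-0.60 to -0.72). Limma called 0 of the 10 genes from 5 to 7 d (0.657% of all genes), 7 to 14 d (0.634%), 14 to 21 d (0.453%) and 21 to 28 d (0.199%). At an unadjusted p under 0.05, a cut for which no share of all genes is given here, there were 1, 2, 4 and 1 genes. Between 3 d and 28 d, 5 of 10 genes were called against 12% of all genes, Irs2 (-1.30), Akt1, Ddit4 (-2.08) and Sesn1 (-1.19) being lower and Deptor higher at 28 d.

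The order of levels changed with these courses. At 0 d it ran from Foxo4 (35.5 FPKM) and Akt2 (32.4), whose samples overlapped, through Akt1 (15.9), Deptor (10.8), Sesn1 (8.52), Ddit4 (7.02), Irs2 (5.76), Irs1 (4.76) and Foxo3 (4.48) to Foxo1 (2.51). Deptor overlapped Sesn1, and neighbours overlapped from Ddit4 through Irs2 and Irs1 to Foxo3, while Foxo1 lay below every Foxo3 sample. At 3 d Akt1 (61.2) and Akt2 (59.2) overlapped at the top, followed by Ddit4 (41.9), and Irs1 (3.18) was last. At 28 d Akt2 (71.3) was followed by Deptor (33.2), and then by Foxo4 (27.0) and Akt1 (25.2), whose samples overlapped. The adaptors Irs2 (3.32) and Irs1 (2.27) closed the order, and their samples overlapped too.

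Correlations over the 32 samples describe likeness of course only, since samples of 1 time point share their group and all share the same scaling. The members most alike in log2(FPKM + 1) were Ddit4 and Sesn1 (Pearson r = 0.915), then Irs2 and Sesn1 (0.894), Irs2 and Ddit4 (0.861) and Irs1 and Irs2 (0.859), while Irs1 and Akt2 ran most nearly opposite (-0.825). Among the 11943 genes compared, the closest to Ddit4 were Cebpd (0.957) and Map3k6 (0.951), those to Sesn1 Zfyve1 (0.968) and Fkbp5 (0.964), those to Irs1 Slc7a2 (0.956) and Cebpg (0.939), and those to Irs2 Zbtb44 (0.969) and Lpin1 (0.969). Foxo4 was closest to Myh4 (0.893), the fast myosin heavy chain, and Atp2a1 (0.877), the calcium pump of fast fibres. The closest to Foxo1 were Prdm2 (0.936) and Uggt1 (0.925), and to Foxo3 Sertad2 (0.956) and Ddi2 (0.945). E2f4 (0.980) and Mknk2 (0.976) were closest to Akt1, Tnfrsf23 (0.978) and Cpne2 (0.977) to Akt2, and Tmem64 (0.969) and Enpp3 (0.959) to Deptor.

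Other genes of the pathway were read from 6 lists that leave out the 10 genes, shown in the plot of list shares. These lists too were chosen with earlier results of these data known. Upstream, 22 of 23 genes of the insulin and IGF receptor and PI3-kinase arm were tested (Irs4 was not), of which 7 were called higher and 3 lower at any time and 12 never, where 25.7% of all genes tested were called higher and 8.19% lower at any time. Their median change was 0.12 at 3 d and 0.32 at 28 d, beside 0.056 and 0.14 for all 22071 genes tested, and 0.20 and 0.30 for the 11943 with a mean FPKM of at least 1. At 3 d, 4 of the 22 were called higher and 3 lower as deposited, against 13.2% and 6.03% of all genes, and 1 higher and 4 lower after median-ratio scaling, against 9.02% and 9.17%. Leaving out 1 sample at a time gave 3 to 5 higher and 1 to 3 lower at 3 d as deposited. Grb10, an adaptor that dampens insulin and IGF1 receptors, was at 15.3 ± 2.45 FPKM at 28 d and 5.00 ± 0.46 at 0 d (log2 1.43, limma adjusted p = 6.17e-09). Its relative Grb14 went the other way, from 5.28 ± 1.28 FPKM to 0.424 ± 0.131 at 3 d (log2 -2.12, limma adjusted p = 3.91e-15). Pik3r3, a PI3-kinase regulatory subunit, was higher at 7 d (log2 1.34), and Pik3cd, a catalytic subunit best known from leukocytes, was lower at 1 d (-0.76).

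Of 22 tested genes for mTOR complexes and their effectors, 11 were higher and 4 lower at any time, 2 of them both, and 9 never called, beside 25.7% and 8.19% of all genes. Eif4ebp1, the translation repressor that mTORC1 inactivates, was at 223 ± 41.6 FPKM at 3 d and 20.1 ± 1.11 at 0 d, 11.1 times as high (log2 3.39, limma adjusted p = 9.44e-20). Mtor itself was at 15.6 ± 1.30 FPKM at 14 d and 4.68 ± 0.43 at 0 d (log2 1.55, limma adjusted p = 3.25e-14). Eif4ebp2, a paralogue of Eif4ebp1, was lower at 21 d (-0.92), as was Eif4e, the cap-binding protein both repressors hold, at 14 d (-0.78). At 5 d, 9 of the 22 were called higher as deposited, against 14.9% of all genes, and 2 after median-ratio scaling, against 6.71%. Higher calls went from 6 to 1 at 21 d with that scaling, where the share of all genes went from 11.8% to 6.45%. At 28 d they went from 7 to 1, beside 14.2% and 6.59% of all genes, so the count at any time holds for the values as deposited.

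Among 27 tested genes for nutrient and stress inputs to mTORC1, 10 were higher and 8 lower at any time, 1 of them both, beside 25.7% and 8.19% of all genes. Of the other sestrins, Sesn2 was higher at 1 d, when Sesn1 was too (3.57 ± 0.55 against 1.08 ± 0.08 FPKM, log2 1.13), and Sesn3 was higher at 28 d (5.16 ± 0.54 against 1.89 ± 0.16, log2 1.09). Ddit4l, the paralogue of Ddit4 that also restrains mTORC1, moved opposite to it at 3 d, from 74.9 ± 2.59 FPKM at 0 d to 5.35 ± 1.02 (log2 -3.59, limma adjusted p = 7.26e-16). Prkag3, the AMPK subunit of fast muscle fibres, fell from 39.1 ± 6.52 to 6.33 ± 1.61 FPKM at 3 d (-2.46, limma adjusted p = 2.91e-15). As deposited, it was called higher at 14, 21 and 28 d, with means of 63.6, 68.3 and 74.2 FPKM. At 3 d, 4 of the 27 were called lower as deposited, against 6.03% of all genes, and 8 after median-ratio scaling, against 9.17%. Higher calls in this list went from 4 to 1 at 5 d, from 6 to 1 at 7 d and from 7 to 1 at 14 d with that scaling. The shares of all genes went from 14.9% to 6.71%, from 15.4% to 7.16% and from 14.6% to 6.59%. At 21 d the list went from 7 to 3 and at 28 d from 6 to 2, beside 11.8% to 6.45% and 14.2% to 6.59% of all genes. The any-time count of this list too holds as deposited.

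FoxO regulators, with 19 of 20 tested (Sgk2 was not), gave 10 higher and 1 lower at any time, beside 25.7% and 8.19% of all genes. Sgk1, a kinase that phosphorylates FoxO factors as Akt does, was higher at 3 d (81.4 ± 13.8 against 32.5 ± 1.49 FPKM, log2 1.28), and Mdm2, a ubiquitin ligase, at 14 d (27.7 ± 3.34 against 11.2 ± 0.95, log2 1.23). Foxo6, the remaining FoxO gene, was lower at 3 d (0.448 ± 0.144 against 2.71 ± 0.42 FPKM, log2 -1.36), and its mean of 4.27 ± 1.28 FPKM at 28 d was not called against 0 d (log2 0.48). At 7 d, 9 of the 19 were called higher as deposited, against 15.4% of all genes, but 3 after median-ratio scaling, against 7.16%, so that count depends on the scaling.

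Of 24 genes tested that are known as FoxO targets, 14 were called higher and 0 lower at 1 d against 6.34% and 2.49% of all genes, with a median log2 change of 0.91 beside 0.034 for all genes tested and 0.12 for those with a mean FPKM of at least 1, and 18 were higher and 3 lower at any time, 1 of them both, beside 25.7% and 8.19%; median-ratio scaling gave 13 higher at 1 d, against 4.14% of all genes. Gadd45a, a stress gene that also acts in muscle atrophy, went from 3.95 ± 1.69 FPKM at 0 d to 254 ± 23.9 at 21 d (log2 5.74, limma adjusted p = 1.16e-20), and Cdkn1a, the cell cycle inhibitor p21, from 3.20 ± 0.32 to 126 ± 32.8 at 14 d (4.88, limma adjusted p = 2.19e-19). Txnip, an inhibitor of glucose uptake, fell from 175 ± 8.32 to 55.6 ± 12.5 FPKM at 7 d (-1.66), and Sod2, the mitochondrial superoxide dismutase, from 30.5 ± 1.41 to 14.9 ± 1.09 (-0.98). Eif4ebp1 and Sesn3 stand in this list too. At 28 d, 10 of the 24 were called higher as deposited, against 14.2% of all genes, and 5 after median-ratio scaling, against 6.59%.

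Glucocorticoid-responsive genes, with 14 of 15 tested (Mt2 was not), had the highest share of the 6 lists at 1 d, 11 higher and 0 lower with a median log2 change of 1.32 beside the same 0.034 and 0.12, against 6.34% and 2.49% of all genes. At any time 12 were higher and 3 lower, 2 of them both, beside 25.7% and 8.19%. Of this list, Cebpd was the gene closest in course to Ddit4, and Fkbp5 the second closest to Sesn1. At 3 d, 10 were higher against 13.2% of all genes, and at 21 d 3 were higher and 3 lower against 11.8% and 3.93%. After median-ratio scaling there were 11 higher and 1 lower at 1 d, against 4.14% and 4.69% of all genes. With that scaling the counts were 8 and 1 at 3 d, against 9.02% and 9.17%, and 2 and 3 at 21 d, against 6.45% and 7.17%. Mt1, a metallothionein, was at 415 ± 124 FPKM at 3 d and 8.09 ± 1.00 at 0 d (log2 5.47, limma adjusted p = 2.04e-17), and Lcn2, a secreted acute-phase protein, at 41.6 ± 7.06 at 1 d and 0.295 ± 0.130 at 0 d (5.03, limma adjusted p = 3.47e-17). Dusp1, a MAP kinase phosphatase, was lower at 5 d (7.12 ± 0.86 against 24.7 ± 4.15 FPKM, -1.65), as was Zbtb16 (3.97 ± 0.30 against 10.97 ± 2.15, -1.25), which had been called higher at 1 d (27.4 ± 6.76) and 3 d (18.3 ± 6.74).

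**Figure D5:**
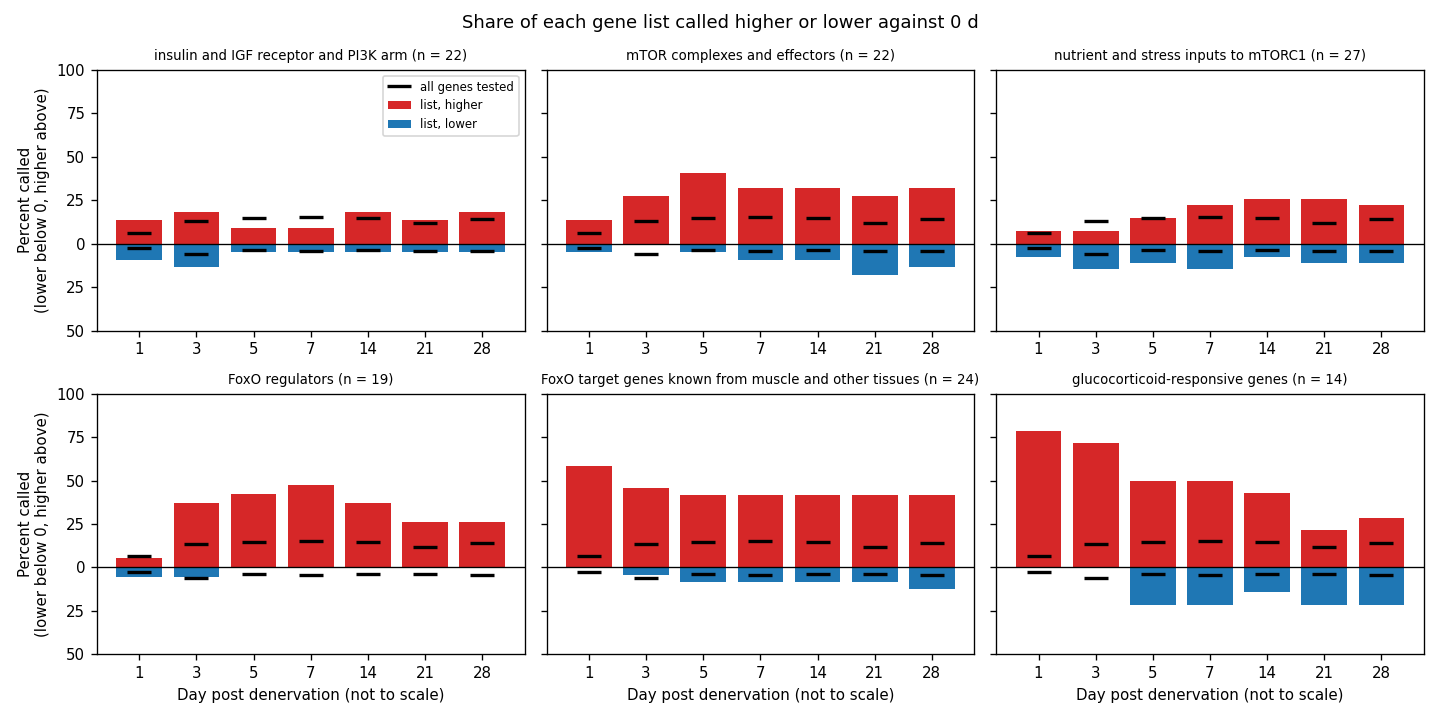
Percent of the tested genes of each of 6 lists called higher (red, above 0) or lower (blue, below 0) against 0 d at 1 to 28 d post denervation; black marks give the percent of all 22071 genes tested. FoxO targets (14 of 24) and glucocorticoid-responsive genes (11 of 14) have the tallest red bars at 1 d, where 6.34% of all genes are called higher.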

How the data were processed

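The authors deposited 1 table of FPKM (fragments scaled to exon length and library total) for 33397 genes in 32 samples. The labels' processing notes name CASAVA, HISAT2 2.1.0, DESeq2 and GRCm38 without roles; the counter, its annotation and its strand setting are not given in the sources used here. Column names gave each sample's time point and no more.

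FPKM times GENCODE vM21 merged exon length (33356 genes matched, 41 did not) gave whole numbers of fragments, within 0.1, for 99.4 to 99.5% of values under 200 fragments, with 14199920 to 17561609 fragments per sample. All values of the 10 genes were far above 3 fragments, taken as the floor; this covers counting error only.

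Genes that reached 0.1 FPKM in 4 or more samples (22071) were fitted as log2(FPKM + 1) with limma 3.58.1 (R 4.3.3; lmFit, eBayes with a variance trend) over all 32 samples, with Benjamini-Hochberg adjustment over all of them. Calls needed an adjusted p under 0.05 and 1.5-fold. The pseudocount understates changes of low genes. Within-sample ratios were compared by exact permutation of 4 against 4 samples, two-sided, adjusted over 28 tests. The fits were tested on simulated data. Sequences are from RefSeq (GRCm38.p6). Alternatives were the pseudocount, filters, TPM, median-ratio and quantile scaling, mitochondrial genes left out of the total, no variance trend, no fold threshold, separate fits for 2 time points, and each sample left out.

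The genes and lists were chosen with earlier results of these data known. Named from each list were the 2 genes called higher and the 2 called lower whose change was largest (1 lower where only 1 was called), and for likeness the 2 genes with the highest r among those with a mean FPKM of at least 1.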

Additional observations from a re-analysis of the deposited data

Results flagged for a closer look

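In 3 of 80 groups of 4 samples, 1 sample lay further from the rest than the 95% critical value of Dixon's test; chance gives about 4. Irs2 at 14 d had a lowest sample of 2.80 FPKM with the others at 3.49 to 3.53. At 0 d the same control sample, the third in the table, was the highest for Akt1 (17.6 FPKM, others 15.3) and for Akt2 (37.1, others 30.7 to 31.0); it also had the lowest mitochondrial share of the controls, 14.5%, and the part of that share was not tested.

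The effect at 28 d was called different from that at 3 d (limma adjusted p under 0.05 and 1.5-fold) for 5 of the 10 genes, against 12% of all genes. Below 1.5-fold, Foxo3 (-0.39, limma adjusted p = 0.0047) and Akt2 (0.26, limma adjusted p = 0.00996) differed too. Among the 5 called, the difference (28 d minus 3 d, log2) was -1.30 for Irs2 (limma adjusted p = 7.93e-08), -1.24 for Akt1 (1.83e-10), -2.08 for Ddit4 (4.91e-08), -1.19 for Sesn1 (8.17e-08) and 1.38 for Deptor (6.99e-10).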

How the results depend on the processing

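Of 140 gene comparisons (10 genes, 14 contrasts), 54 were called and 47 of these also after median-ratio scaling; no called change reversed under any alternative run, while 13 uncalled ones changed sign after median-ratio scaling. Counts of the 10 genes that moved by over 1.5 times were as follows. Higher at 3 d went from 7 to 4 (quantile), lower at 3 d from 0 to 1 (pseudocount 0.1) or 2 (median-ratio, quantile, no fold threshold). Higher at 5 d went from 5 to 3 (median-ratio, quantile, without mitochondrial genes), lower at 5 d from 1 to 3 (median-ratio, quantile, no fold threshold) or 2 (without mitochondrial genes). Lower at 7, 14 and 28 d went from 2 to 1 with TPM. Higher at 21 d went from 2 to 4 (pseudocount 0.1, TPM) or 5 (no fold threshold), and higher at 28 d from 4 to 2 (median-ratio, quantile). From 1 to 3 d, 2 higher became 1 (quantile), and 2 lower became 4 (quantile) or 5 (no fold threshold). With no fold threshold, 3 to 5 d gave 2 higher in place of 0 and 5 lower in place of 3, 7 to 14 d 1 lower, 14 to 21 d 3 lower (1 with pseudocount 0.1 or TPM), and 3 to 28 d 2 higher in place of 1. The Foxo1 to Foxo3 difference at 1 d, 0.22, was 0.092 with FPKM + 1 (exact adjusted p = 0.128). Leaving out each sample in turn gave 0 to 1 lower at 3 d, 3 to 6 higher at 5 d (3 without the second control), 1 to 2 lower at 7, 14 and 28 d, and 0 to 1 lower from 14 to 21 d. The causes were not tested. No paired analysis was possible because the columns carry letters or digits that no label ties to its replicate numbers. Each value of the 10 genes rested on 170 fragments or more, and the effect of a lower depth was not tested.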
